A study of Arabidopsis thaliana with 18 samples.

Results

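The protein genes of the plastid genome were followed through the first 360 min of deetiolation. The members were all genes whose identifier starts with ATCG, without the 8 rRNA genes and without the 39 identifiers whose transcript is under 100 bases, which are the tRNA genes and, by the annotation, 2 short protein genes (petN, 90 bases, and petL, 96 bases). This left 86 of the 34212 genes in the files. The seedlings (Arabidopsis thaliana, Col-0, 5 days old, harvested whole) carried no transgene or mutation in any group. The 6 groups, with 3 libraries each, were a dark group and groups exposed to white light (WL) of 15, 30, 60, 150 or 360 min. A dark control for each later time was not among them, so light and elapsed time cannot be told apart.

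Plastid genes encode the core subunits of the photosystems, the cytochrome b6f complex, ATP synthase and the NDH complex, the large subunit of Rubisco, part of the plastid ribosome and the core of a bacterial-type RNA polymerase (PEP). The remaining subunits, the sigma factors that direct PEP to promoters and the phage-type polymerases (NEP) that also read plastid genes are encoded in the nucleus. During deetiolation etioplasts become chloroplasts, and the nuclear photosynthesis genes are known to rise steeply. Plastid mRNAs carry no stable poly(A) tail, and short A tails mark them for decay. The labels give the RNA of these libraries as polyA RNA, so the levels below describe what that selection took up, and its part in any result was not tested. In whole seedlings, fewer cells or plastids and less RNA per cell cannot be told apart.

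The libraries differed widely in plastid 23S rRNA, which took 3.37% to 83.9% of all counts (median 49.2%), and it was left out of the library totals before scaling. After that, 1999671 to 10821472 counts per library remained. The library of 60 min replicate 3 stood apart, with the lowest 23S share. The light genes HY5, CHS, ELIP1 and RBCS1A were called higher and PHYA and PORA lower at 360 min, the directions known for light. The shoot markers STM and ATML1 and the root marker SCR were measured in all groups and none was called at any time. Of the other root markers, COBL9 was at group means of 0 to 0.297 CPM and PLT1 at 0.188 to 1.54 CPM, and neither passed the filter.

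The files give identifiers without symbols. Symbols were assigned where the transcript length equalled the length of a coding sequence of the RefSeq plastid record (TAIR10.1): 55 members had a unique length, in genome order, and 23 more were placed by length between those neighbours. The 8 others keep their identifiers. In 7 pairs the members are identical copies in the inverted repeat (rpl2, rpl23, ycf2, rps7, exons 2 and 3 of rps12, ATCG00870 with ATCG01270, and ATCG00890 with ATCG01250). The authors' assignment split their reads equally, so 1 value is given per pair. Members on the same strand overlap in 3 pairs. psbD and psbC share 53 bases, rps3 and rpl22 share 16, and atpE and atpB share 4. Only the stretch of psbD and psbC is longer than the reads the paper gives, and reads within it cannot be told apart. On opposite strands ATCG01000 and ndhF share 39 bases.

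Of the 86 members, 61 passed the filter (fewer than 2 libraries at 0 counts in every group) and were tested among 16745 genes. These 61 hold 55 distinct sequences. Of the 25 members that did not pass, 22 were under 260 bases, and 3 members of that length passed (atpH and both copies of rps12 exons 2 and 3). In all 18 libraries 13 members were at 0. Among them were psbI, psbJ, psbL, psbF, psbM, psbN, psbT, psaI, psaJ and petG. These encode small membrane proteins annotated to the photosystems or the cytochrome b6f complex. All 13 were short, from psbT (102 bases) to rpl32 (159 bases), and the shortest member with any count was psbK (186 bases). The fragment length that the paper set for kallisto was longer than each of these 13. A level of 0 here therefore does not show that the transcript was absent, and the part of length was not tested. By role, 4 of 15 photosystem II members passed, 2 of 5 photosystem I members, 3 of 4 of cytochrome b6f, 6 of 6 of ATP synthase, 7 of 9 of the NDH complex, 4 of 4 of the RNA polymerase, 13 of 14 of the small and 8 of 11 of the large ribosomal subunit. In a library 62 to 69 members had counts.

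Because the RNA was selected on poly(A), the longest run of A inside the coding sequence was located in each of the 78 named members. The windows below, of 30 bases each, are shown for the members with some of the longest runs, for one of the most abundant members (atpE) and for psbA and rbcL. They are printed 5′ to 3′ on the coding strand with the run in capitals, from RefSeq, TAIR10.1, plastid record (Pltd).
rpoA, Pltd:78087-78116, minus strand: aacctaagAAAAAAAAAAAAAAcaaaagaa
ycf1, Pltd:125859-125888, minus strand: aaatggagAAAAAAAAAAAAAtactcttta
atpB, Pltd:54091-54120, minus strand: tcgatacgtgAAAAAAAAAAcctgggacgt
atpE, Pltd:52591-52620, minus strand: gggattcagaagtAAAAgaaatcattttat
psbA, Pltd:1355-1384, minus strand: ataactagcactgAAAAccgtctttacatt
rbcL, Pltd:55492-55521, plus strand: gggttatccgcgAAAAActatggtagagca
All 6 windows lie in coding exons. The longest run was 14 bases in rpoA, 13 in ycf1, 10 in atpB, 5 in rbcL and 4 in atpE and psbA. Of the members without a window here, accD (37.4 TPM) and rpoC2 (29.2 TPM) also held runs of 13, and rpoB (16.9 TPM) a run of 10. Over the 52 distinct named members of at least 260 bases, 14 (26.9%) held a run of at least 8, and their median level was 40.2 TPM, against 44.3 TPM for the 38 others. Spearman's rho across these genes was 0.019 between the length of the run and the mean level, and 0.329 between the percentage of A in the coding sequence and the mean level, both as descriptions of genes that share libraries.

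Levels between genes were compared per length, as TPM rescaled without the 23S rRNA. The order was led by genes of the ribosome and not by those of the photosystems. rpl16, a protein of the large ribosomal subunit, had the highest mean (1492 TPM, lowest library 581.9, highest 2473). atpE, the epsilon subunit of ATP synthase, followed with 1221 TPM (445.8 to 2186), and rps7 with 762 TPM (277.4 to 1447). These neighbours kept their order in most libraries: rpl16 was above atpE in 16 of 18 libraries, and atpE above rps7 in 16 of 18.

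Next came rps19 (660 TPM), rps14 (385 TPM), rpl2 (318 TPM), clpP (291 TPM) and rpoA (280 TPM). In this order rps7 was above rps19 in 12 of 18 libraries and rps19 above rps14 in 15. From rps14 on neighbours were not separated: rps14 was above rpl2 in 8 of 18 libraries, rpl2 above clpP in 11, and clpP above rpoA in 11. The genes of the photosystems and of Rubisco were lower, led by psbC (117 TPM) and psbB (62.1 TPM). petA (126 TPM) and atpB (147 TPM) lay above these. This order depends on the scaling by length: rps19 (279 bases) had 5229 counts over all libraries and psbC (1422 bases) 10880. psbA, for the D1 protein of the photosystem II reaction centre, had a mean of 47.7 TPM (6.08 to 174), and psbD, for D2, 42.5 TPM (10.3 to 85.5). rbcL, for the large subunit of Rubisco, had 26.9 TPM (7.17 to 80.9). psaB and psaA, for the reaction centre of photosystem I, had 21.7 and 16.6 TPM. The plot of levels per length shows that the libraries of a member were often farther apart than its neighbours in the order.

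**Figure D1:**
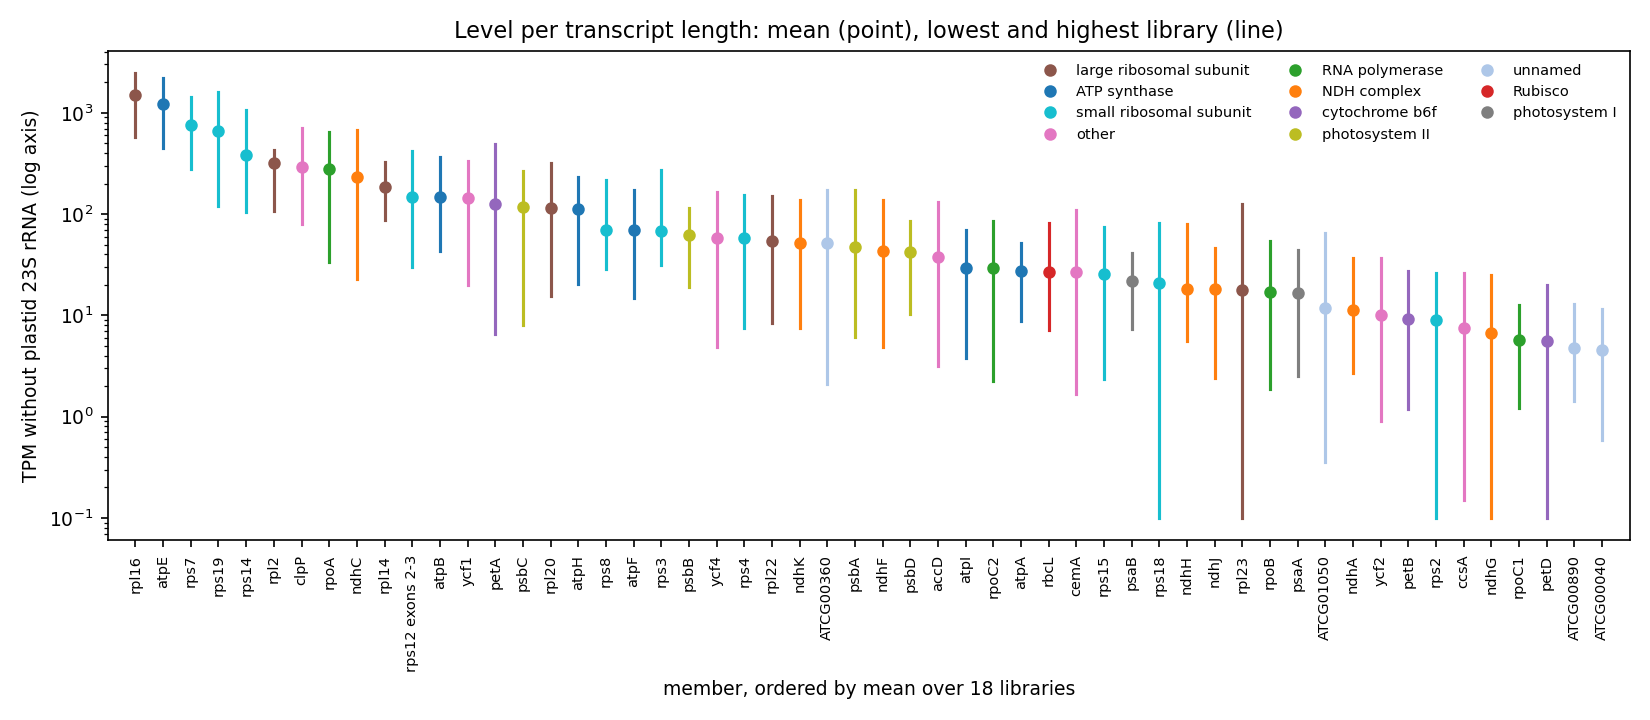
Level per transcript length (TPM without plastid 23S rRNA, log axis) of 54 distinct members that passed the filter, ordered by their mean over 18 libraries and coloured by role. Points are means and lines run from the lowest to the highest library, with values under 0.1 drawn at 0.1. rpl16 (mean 1492) and atpE (1221) lead, and psaA (16.6) lies far to the right.

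Together the members made up 0.138% to 0.684% of the counts without 23S rRNA. The share was 0.212%, 0.554% and 0.616% in the 3 dark libraries, 0.229%, 0.163% and 0.394% after 15 min, and 0.257%, 0.138% and 0.291% after 30 min. It was 0.599%, 0.428% and 0.375% after 60 min, 0.251%, 0.460% and 0.684% after 150 min, and 0.675%, 0.459% and 0.183% after 360 min. All groups overlapped with the dark group, and the dark mean (0.461% ± 0.218, SD, n = 3) lay next to those at 60, 150 and 360 min (0.467% ± 0.117, 0.465% ± 0.216 and 0.439% ± 0.247). The means at 15 and 30 min were lower, 0.262% ± 0.119 and 0.228% ± 0.0803.

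Within every time group the share of the counts without 23S rRNA followed the 23S rRNA of the library. In all 6 groups, the 3 libraries had the same order by member share as by 23S share. At 360 min, for example, the members took 0.183%, 0.459% and 0.675% where 23S rRNA took 24.0%, 78.6% and 83.9%. Gene by gene, 40 of the 61 members (65.6%) had a higher CPM in the library richest in 23S rRNA than in the poorest in all 6 groups, against 9.74% of 16659 nuclear genes. The mitochondrial share was also higher in the library richest in 23S rRNA in 6 of 6 groups. The part of the 23S rRNA in the results below was not tested beyond a fit with it as a covariate.

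**Figure D2:**
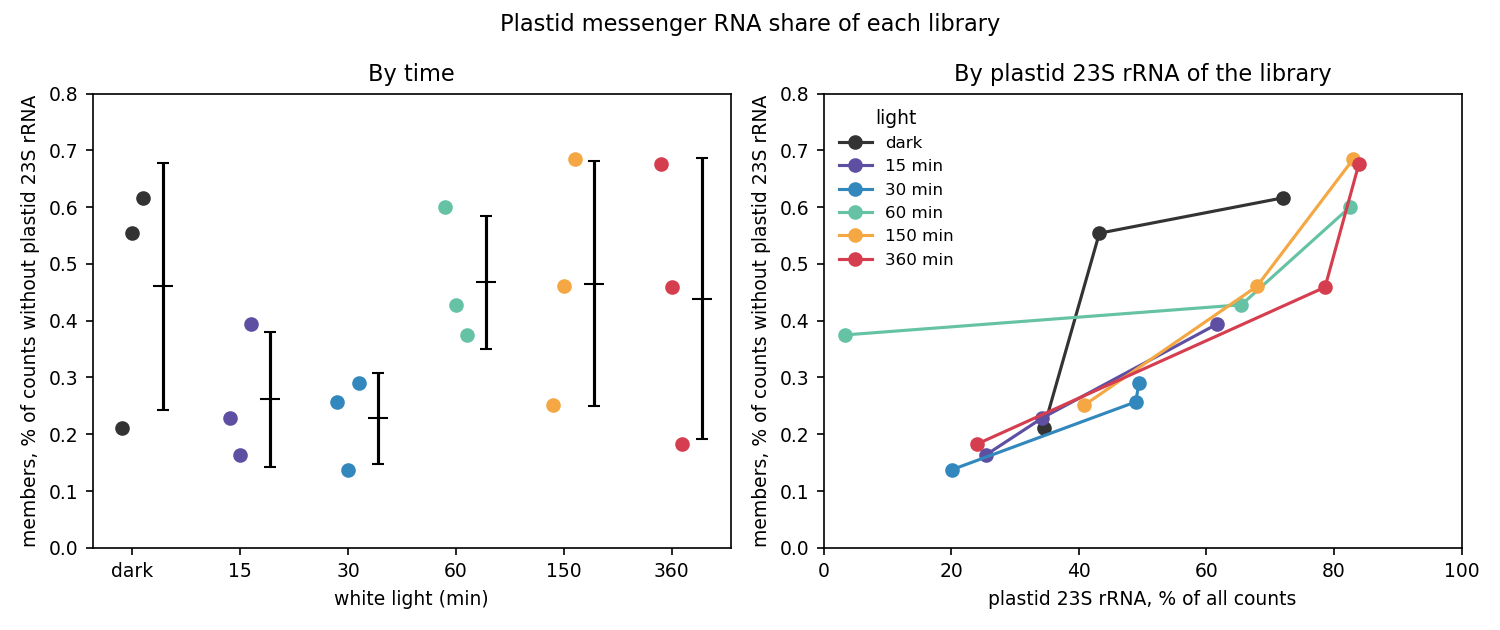
Left, share of the members in the counts without plastid 23S rRNA for each library by minutes of white light, with mean and SD (n = 3). Right, the same share against the plastid 23S rRNA of the library in percent of all counts, with lines joining the libraries of a group, each of which goes up from left to right.

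No member was called at an adjusted p below 0.01 at any time (edgeR's quasi-likelihood test, Benjamini-Hochberg adjustment over all genes). The count was 0 of 61 at 15, 30, 60, 150 and 360 min, while 0%, 0.0836%, 0.848%, 2.77% and 4.29% of all genes tested were called. It was 0 of 61 for any change over the time course (5.01% of all genes). For late (150 and 360 min) against early (dark and 15 min) it was also 0 of 61, where 8.42% of all genes were called. This late against early contrast was chosen with earlier results of these data known. The lowest adjusted p of a member was 0.0557, for rps15, late against early. At an unadjusted p below 0.05 there were 1, 6, 6, 1 and 5 members at the 5 times in order, 8 late against early and 7 over the time course. The shares among all genes were 0.89%, 2.5%, 11.2%, 14.8%, 21.4%, 28% and 17.4%. The 6 members at 30 min (atpB, cemA, ccsA, rps4, rps19 and ycf1, 9.84% of 61) all had lower fitted levels than in the dark. Among all genes 0.979% were lower at that threshold. The members share the same libraries, so these are not 6 separate results. DESeq2 called 1 member at 30 min (cemA) and 1 over the time course (rps15). The share of all genes that DESeq2 called is not given here, so these counts have no background beside them. The members' fits were wide, with a median SE of 0.93 on the log2 scale at 360 min (0.37 to 1.49) against 0.63 for all genes.

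The fitted changes leaned downwards early and upwards late without a call. At the 5 times in order, 8, 4, 35, 43 and 44 of the 61 members had a fitted change above 0, beside 49.3%, 48.7%, 51.2%, 48.5% and 48.6% of all genes. Late against early 51 members did (48.3% of all genes). The members' median log2 change was −0.57, −0.85, 0.10, 0.30 and 0.63 at the 5 times and 0.88 late against early, where the medians of all genes lay between −0.03 and 0.02. With the 23S share of each library as a covariate, a fit added after the values were seen, the medians became −0.27, −0.68, 0.07, −0.24 and −0.15 in the same order and −0.07 late against early. The medians at 150 and 360 min and late against early thus turned in direction, while those at 15 and 30 min stayed below 0.

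**Figure D3:**
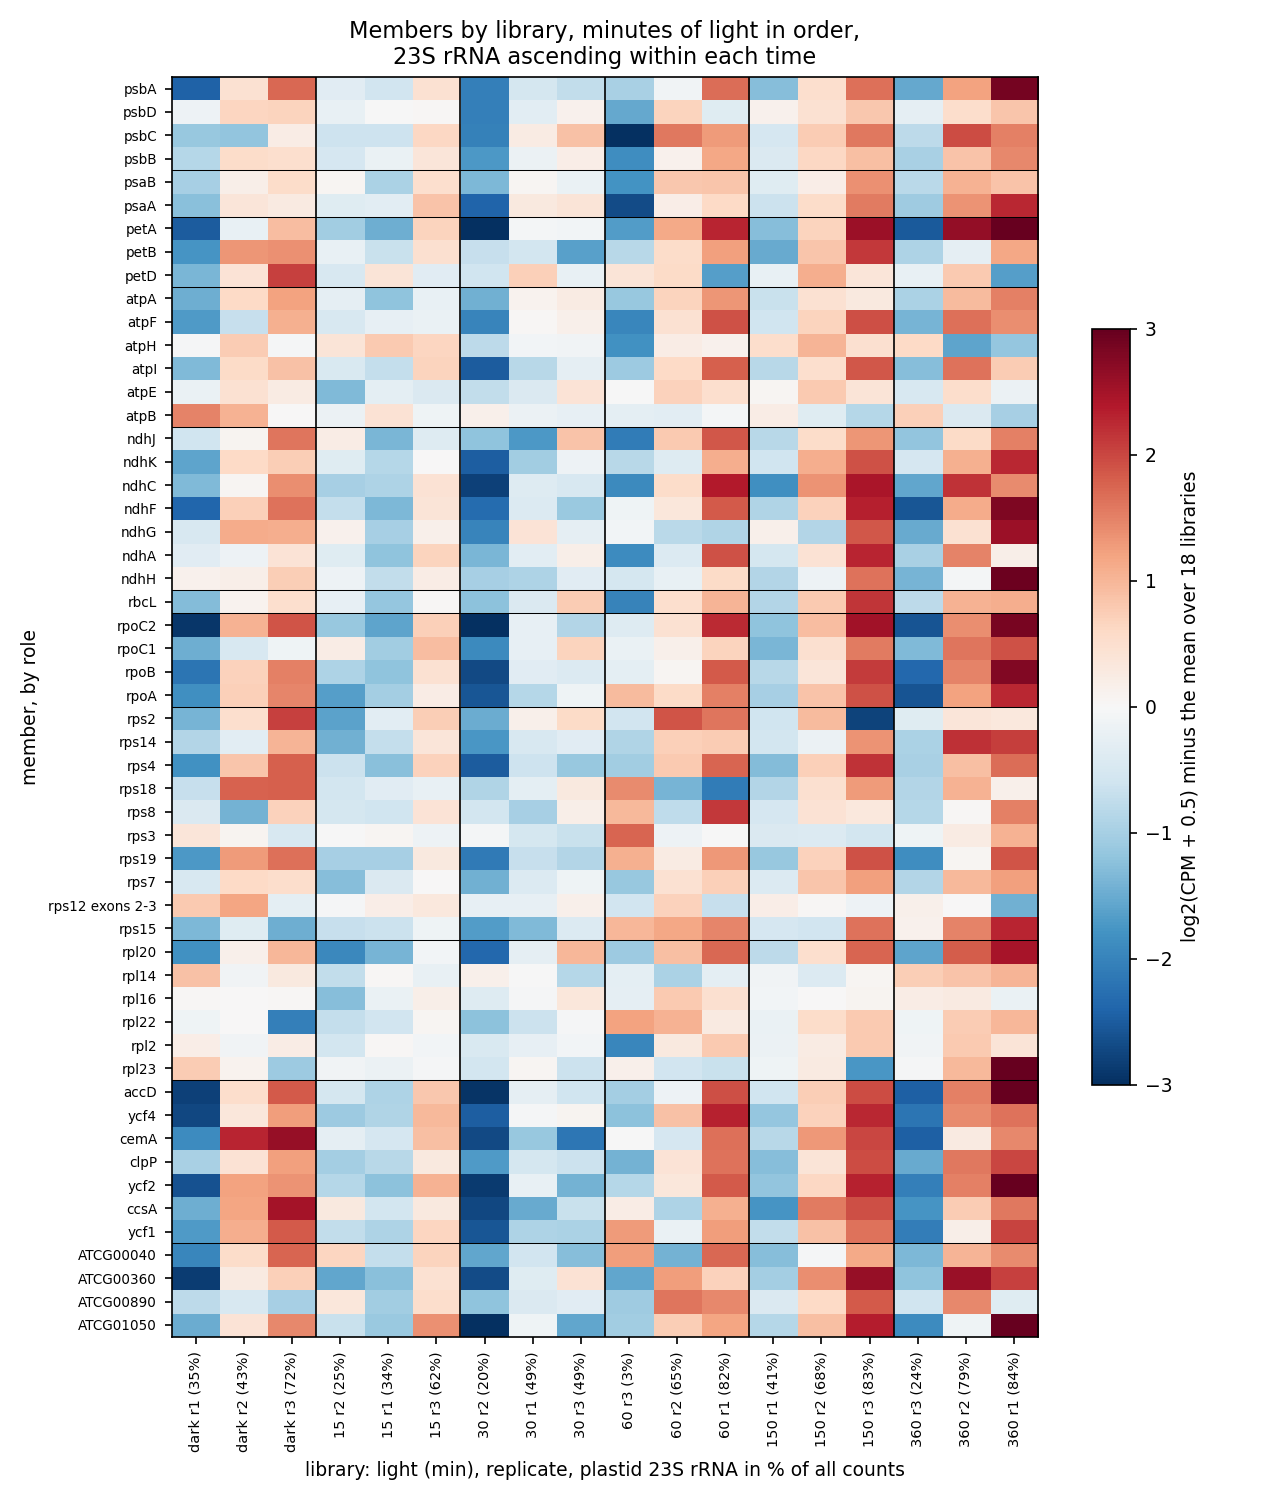
Level of 54 distinct tested members in each library as log2(CPM + 0.5) minus the member's mean over the 18 libraries. Columns are ordered by minutes of light and, within a time, by ascending plastid 23S rRNA (percent in brackets), and most rows run from blue to red within each time, with atpB and rps3 among those that do not.

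Among the 4 tested photosystem II members, psbA had 4.51, 36.6 and 87.6 CPM in the dark libraries. After 360 min it had 197, 61.8 and 8.83 CPM, so that 1 of these libraries lay above the dark range and the others within it (log2 change 1.05 ± 1.08, SE, adjusted p = 0.622, edgeR). psbC, for the CP43 antenna protein, had 43.7, 41.9 and 112 CPM in the dark and 274, 375 and 56.1 CPM after 360 min, and its replicate 3 lay inside the dark range (1.83 ± 1.06, adjusted p = 0.350, edgeR).

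psbD had 27.1, 47.6 and 48.1 CPM in the dark and 53.8, 43.4 and 25.2 CPM after 360 min, a log2 change of −0.01 ± 0.53 (SE). SIG5, the nuclear sigma factor that in Arabidopsis directs PEP to the light-responsive promoter of psbD, was at 2.78, 2.14 and 1.15 CPM in the dark and at 210, 214 and 191 CPM after 360 min, a called rise of 6.59 ± 0.48 on the log2 scale (adjusted p = 1.03e-08, edgeR). psbB, for the CP47 antenna protein, changed by 0.54 ± 0.65 at 360 min and was not called.

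The photosystem I genes psaA and psaB were also not called. psaA had 9.95, 31.4 and 29.5 CPM in the dark and 119, 62.9 and 11.5 CPM after 360 min (1.43 ± 0.89, adjusted p = 0.377, edgeR). psaB differed less, 17.4, 39.9 and 51.6 CPM against 64.4, 73.5 and 19.8 CPM. In both, 360 min replicate 3 was close to the lowest dark library. rbcL had 9.83, 27.0 and 35.5 CPM in the dark and 53.8, 52.3 and 14.3 CPM after 360 min (0.72 ± 0.77, adjusted p = 0.632, edgeR).

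petA, for cytochrome f, showed a wide spread. It had 7.98, 40.7 and 90.2 CPM in the dark and 497, 298 and 7.79 CPM after 360 min, so that a fitted log2 change of 2.54 ± 1.49 was not called (adjusted p = 0.360, edgeR). Within a group its highest library was 4.53 to 63.8 times the lowest. The other tested b6f members, petB and petD, had fitted changes of −0.72 and −1.28 at 360 min.

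atpB, for the beta subunit of ATP synthase, had a fitted change below 0 at every time after dark. It had 413, 304 and 148 CPM in the dark, and group means of 153, 138, 126, 122 and 141 CPM at 15, 30, 60, 150 and 360 min. The 3 libraries at 60 min (140, 117 and 120 CPM) lay below all dark libraries. The log2 changes were −0.91, −1.06, −1.20, −1.24 and −1.03, each with an SE of about 0.43, and none was called (adjusted p = 0.118 at 150 min and 0.157 at 360 min, edgeR). After 360 min it had 73.8, 109 and 240 CPM, with the highest level in the library poorest in 23S rRNA, and its CPM was higher in the richer library in 2 of 6 groups. atpB was chosen for this account after its values were seen.

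atpE, which overlaps atpB, kept a narrow range: 186, 295 and 253 CPM in the dark and 188, 309 and 154 CPM after 360 min (−0.17 ± 0.39, SE). At 15 min its 3 libraries (175, 85.5 and 159 CPM) lay below the dark libraries, which made it the 1 member of 61 lower in all libraries then (3.84% of all genes). Of the other ATP synthase members atpA, atpF and atpI had fitted changes above 0 at 360 min and atpH below.

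The NDH complex carries cyclic electron flow around photosystem I, and 7 of its members were tested. Their median log2 change was −1.20 at 30 min and 0.88 at 360 min, none called. ndhC, the highest of them per length, had 9.37, 25.5 and 64.4 CPM in the dark and 65.7, 110 and 7.98 CPM after 360 min (0.88 ± 1.20, SE). At 30 min ndhH and atpH were lower in all 3 libraries than in all dark libraries, as were 5.38% of all genes.

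**Figure D4:**
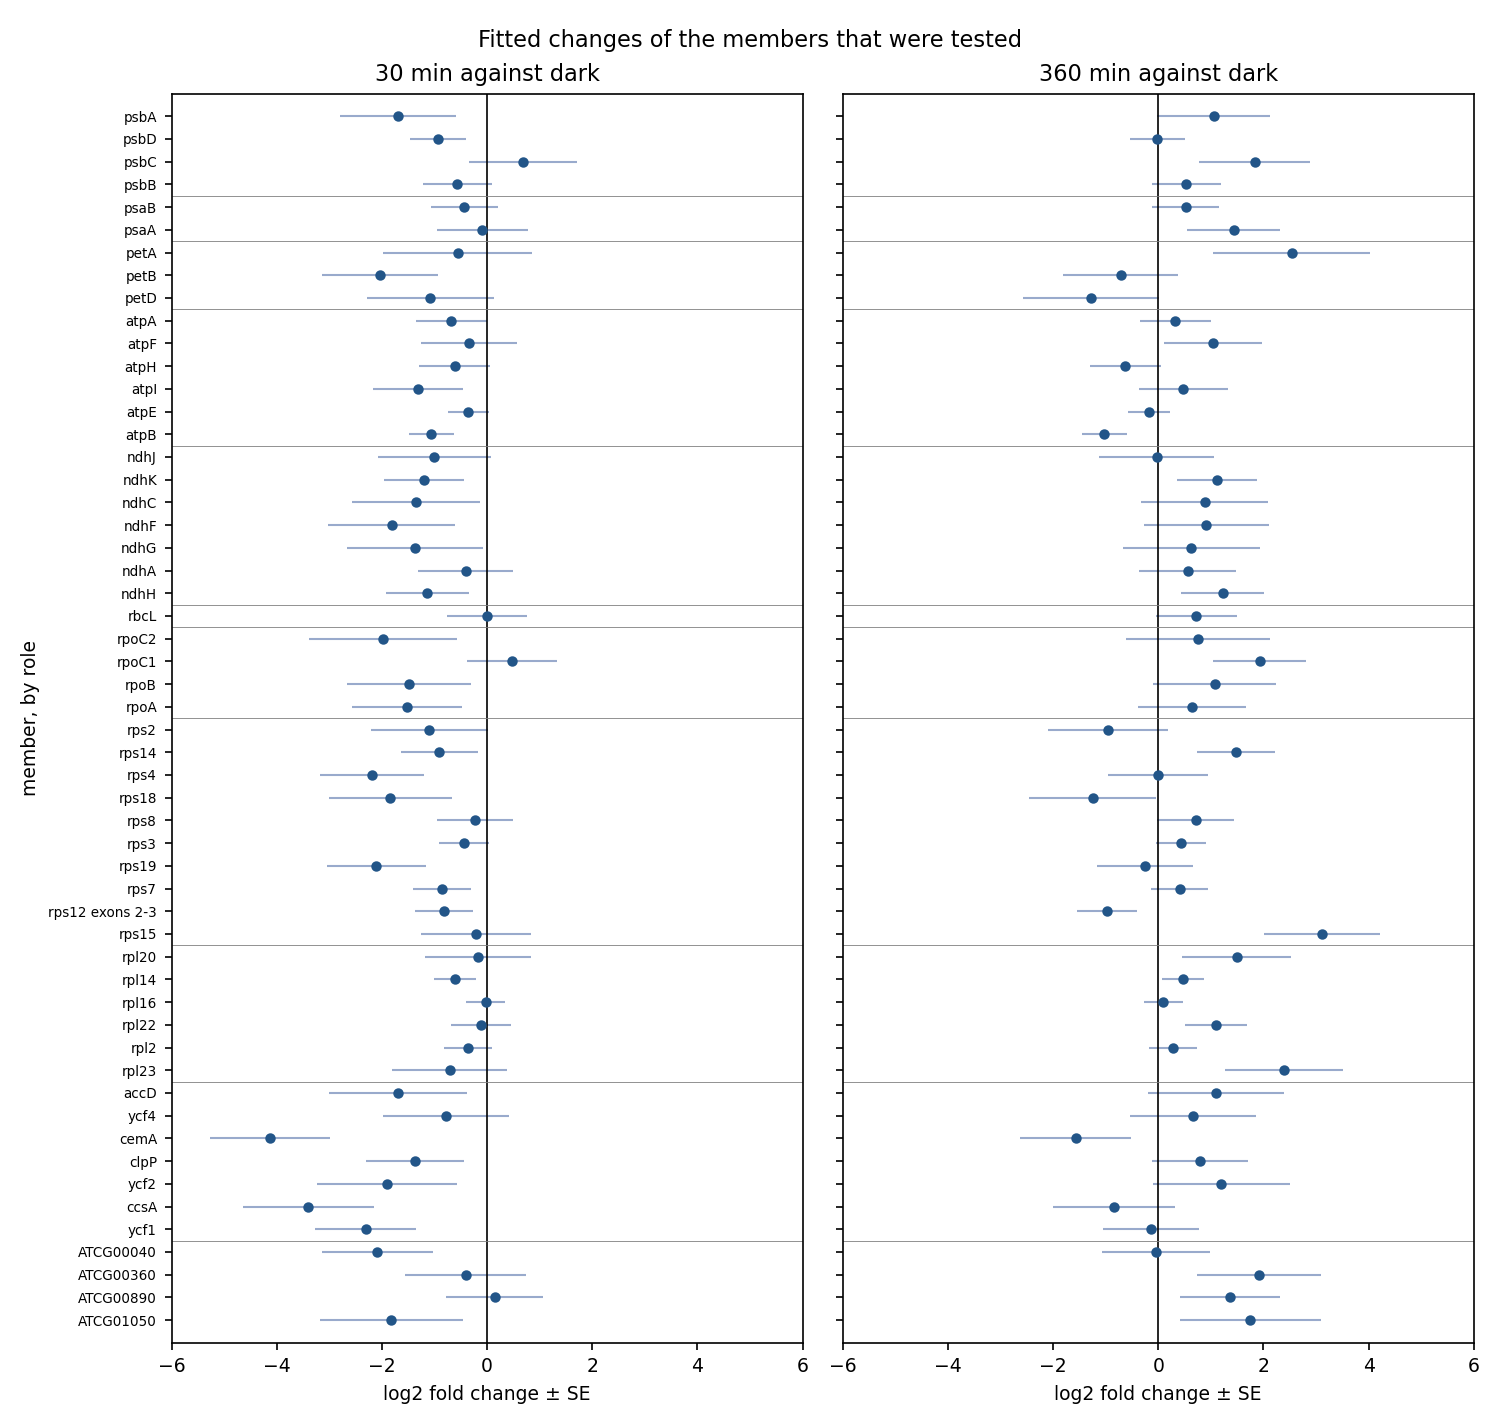
Fitted log2 fold change against dark with its SE (edgeR) for 54 distinct tested members, grouped by role, at 30 min (left) and 360 min (right). Of the 61 members tested 4 were above 0 at 30 min and 44 at 360 min, and no member was called at either time.

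The genes of the plastid RNA polymerase itself, rpoA, rpoB, rpoC1 and rpoC2, had a median log2 change of −1.51 at 30 min and 0.92 at 360 min, none called. rpoB, for the beta subunit, had 6.36, 50.0 and 88.5 CPM in the dark and 213, 87.4 and 5.63 CPM after 360 min (1.07 ± 1.17, adjusted p = 0.645, edgeR). rpoA had 38.6, 229 and 384 CPM against 670, 322 and 22.6 CPM. In both genes the lowest library of either group was the one poorest in 23S rRNA. rpoC1 reached an unadjusted p of 0.0405 at 360 min by edgeR (1.93 ± 0.89, adjusted p = 0.208).

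In tobacco, psbA, psbB, psbC, psbD, psaA, psaB and rbcL depend on PEP, and the rpo operon (rpoB, rpoC1, rpoC2), accD and ycf2 are read by NEP. The median log2 change at 360 min was 0.72 over the 7 of the former and 1.09 over the 5 of the latter, with ycf2 counted once, with 0 called in either. Late against early the medians were 0.93 and 1.19. accD, for a subunit of plastid acetyl-CoA carboxylase, had 3.47, 39.7 and 98.2 CPM in the dark and 219, 79.1 and 4.60 CPM after 360 min (1.09 ± 1.29, SE). ycf2, for a subunit of the plastid protein import motor, had 5.67, 86.3 and 94.8 CPM against 316, 106 and 8.54 CPM (1.20 ± 1.30, SE). In both genes the groups overlapped, and the highest library after 360 min lay above all dark libraries.

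None of the ribosomal protein genes was called by edgeR, and their fitted changes at 360 min differed widely. rpl16 had 286, 282 and 288 CPM in the dark, 245, 340 and 329 CPM after 360 min, and a change of 0.10 ± 0.37 (SE). Its libraries differed within a group by 1.02 to 2.71 times, against 2.05 to 22.3 times for psbA. rps7 had 121, 258 and 245 CPM in the dark and 401, 335 and 92.1 CPM after 360 min (0.41 ± 0.55, SE).

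rps15, a protein of the small subunit chosen after its values were seen, was the member with the lowest adjusted p. It had 0.347, 1.18 and 0.286 CPM in the dark, 5.53, 4.36 and 3.84 CPM after 60 min, 1.03, 0.956 and 6.18 CPM after 150 min and 10, 5.57 and 1.88 CPM after 360 min. The dark values of rps15 rest on 3, 11 and 1 counts. All libraries at 60 and 360 min lay above all dark libraries, but those at 150 min did not. The change was 2.81 ± 1.08 at 60 min (adjusted p = 0.286, edgeR) and 3.12 ± 1.10 at 360 min (adjusted p = 0.0869, edgeR). rps15 was the 1 member higher in all libraries at 360 min (10.5% of all genes). At 60 min it was joined by rpl22 (6.89% of all genes), while atpB and rpl14 were lower in all libraries (7.49%). At 150 min only ATCG00890 and its copy ATCG01250 were higher in all libraries (12.5% of all genes). Each of these counts is a smaller share of the 61 members than of all genes.

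clpP, for the proteolytic subunit of the plastid Clp protease, had 41.1, 110 and 192 CPM in the dark and 326, 243 and 28.4 CPM after 360 min (0.80 ± 0.92, SE). ycf1, for another protein tied to plastid import, took the largest median part of the member counts, 14.3% (5.9% to 38.9%), and was looked at for that reason. Its highest part, 38.9%, was in 60 min replicate 3, the library that stood apart. It had 145, 997 and 1666 CPM in the dark, 246, 78.9 and 242 CPM after 30 min and 1924, 530 and 110 CPM after 360 min, and its change at 30 min was −2.31 ± 0.96 (adjusted p = 1.00, edgeR).

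cemA, for a protein of the plastid envelope, had the most negative fitted change of all members, −4.12 ± 1.14 at 30 min (adjusted p = 0.360 by edgeR, 0.00794 by DESeq2), and was chosen after this was seen. It had 1.504, 35.2 and 44.4 CPM in the dark and 2.85, 0.636 and 1.13 CPM after 30 min. Dark replicate 1 lay below 30 min replicate 1, so the groups overlapped. Of the members without a symbol, ATCG00360 was the highest per length (51.7 TPM). It had 0.347, 6.86 and 9.45 CPM in the dark and 25.0, 36.2 and 2.16 CPM after 360 min (1.92 ± 1.18, SE, not called).

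Many nuclear genes for the same complexes were called in the same libraries. The members' fits were wider than those of all genes, so a member without a call is not shown to be unchanged. At 360 min 8 of 10 nuclear photosystem II genes were called higher, 8 of 12 for photosystem I, 4 of 4 for the Rubisco small subunit, 2 of 2 for cytochrome b6f and 1 of 2 for ATP synthase, with none called lower. A further ATP synthase gene of the list was not analysed here. Of the nuclear genes that act on plastid transcription, 5 of 6 sigma factors, 3 of 12 PEP-associated proteins and 0 of 2 phage-type polymerases were called higher at 360 min. The latter had log2 changes of 2.54 and 2.49 (adjusted p = 0.04999 and 0.08824, edgeR).

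The difference between nuclear and plastid partners was tested directly in 5 pairs, late (6 libraries) against early (6 libraries), on log2(CPM + 0.5), by two-sided exact permutation tests adjusted over the 5 pairs. The pairs were chosen after values were seen, and the late and early groups with earlier results known. The p values therefore describe these 5 pairs and cannot test nuclear and plastid partners in general. Late against early, the fitted log2 changes of the 2 nuclear ATP synthase genes tested were 1.08 and 2.86, and only ATPD was placed in a pair. RBCS1A, for the small subunit of Rubisco, had 1716, 2715 and 2113 CPM in the dark and 41370, 81060 and 37900 CPM after 360 min. Against rbcL it stood 6.58 ± 0.79 log2 units higher early and 9.73 ± 1.19 late (SD, n = 6), a difference of 3.15 with no overlap of the libraries (exact p = 0.00217, the smallest possible, adjusted 0.00541). ATPD, for the delta subunit of ATP synthase, moved against atpB by 3.25 log2 units, from −3.81 ± 0.51 to −0.56 ± 0.62, again with no overlap (exact p = 0.00217, adjusted 0.00541).

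For the photosystems and cytochrome b6f the pairs were not separated. PSBO1, for the oxygen-evolving complex, moved against psbA by 1.75 log2 units (exact p = 0.0476, adjusted 0.0794). PSAD1 (PSAD-1 in the annotation) moved against psaA by 1.36 (exact p = 0.158) and PETC against petA by 1.16 (exact p = 0.409). In the 360 min group PSAD1 had 173, 433 and 796 CPM where psaA had 119, 62.9 and 11.5 CPM, so the partners ran in opposite order over the 3 libraries, and the order of psaA was that of the 23S rRNA.

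**Figure D5:**
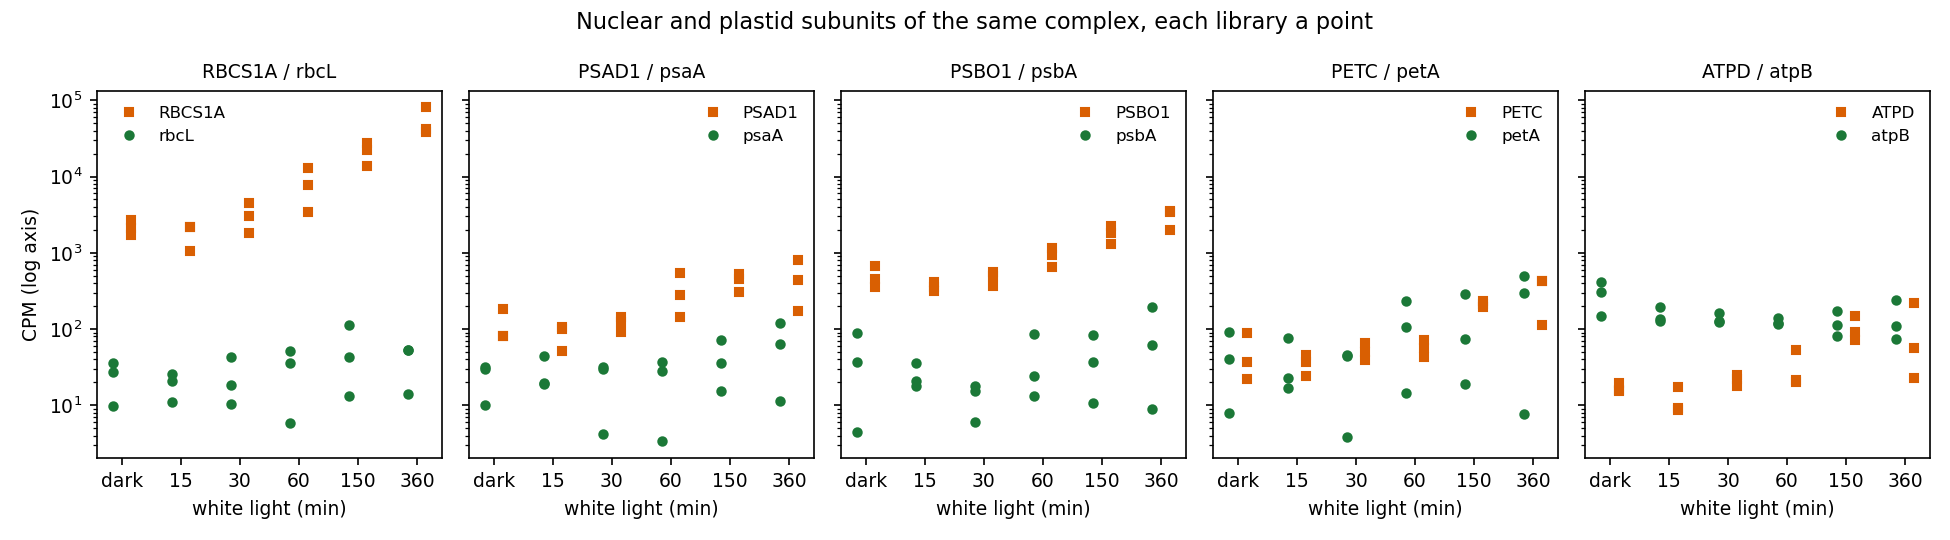
CPM (log axis) of 5 nuclear genes (squares) and their plastid partners (circles) by minutes of white light, each library a point. RBCS1A goes up from 1716 to 2715 CPM in the dark to 37900 CPM or more after 360 min, while rbcL has at most 113 CPM in any library, and in the ATPD and atpB panel the groups of points draw together from 150 min on.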

How the data were processed

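The authors ran kallisto on single reads against AtRTD2-QUASI. Per library they deposited an estimated count and a TPM value for 82190 transcripts, with lengths. Their normalized table was not used here. Per the labels, DESeq 1.36.0 and edgeR 3.26.8 were also used upstream. Gene counts followed the lengthScaledTPM option of tximport and were rounded. The 2 plastid 23S rRNA genes were removed before library totals and TMM scaling. A gene was dropped if any group had 2 or more replicates at 0, which left 16745. One edgeR 4.0.16 quasi-likelihood model (R 4.3.3) over all 18 libraries gave each light group against dark, the time course, and late against early, with Benjamini-Hochberg adjustment over all genes and a threshold of 0.01. DESeq2 1.42.0 was an alternative. The spread between replicates over all genes was a biological coefficient of variation of 0.540. How far this spread and the depth each limit the members was not tested. The fit was tested on simulated data, and alternatives stand in the closing section. Levels are CPM, or TPM rescaled without 23S rRNA. The paper and the labels differ in light intensity and library protocol. Named members are psbA, psbD, psbC, psaA, psaB, rbcL, rpoB, clpP, accD and ycf2, and the highest per length in each role; others are marked as chosen after values were seen or carry counts. Members, lists and the late against early contrast were chosen with earlier results of these data known. Results of 1 tested member are not reported here and it is not drawn. Replicate numbers did not pair the samples.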

Additional observations from a re-analysis of the deposited data

Results flagged for a closer look

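The 16S rRNA of the plastid, which is not a member, was above its highest dark level (0.273% of the counts without 23S rRNA) in 6 of 15 light libraries. It took 1.31% and 0.343% in 60 min replicates 1 and 2, 0.442% and 1.66% in 150 min replicates 2 and 3, and 2.56% and 1.92% in 360 min replicates 1 and 2. These are also the 6 light libraries with the most 23S rRNA.

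ATCG01000, the copy of the start of ycf1 at the edge of the inverted repeat, did not pass the filter. It had counts in 2 libraries, 39.4 CPM in 360 min replicate 1 and 46.8 CPM in 360 min replicate 2, and none in the 3 dark libraries. Of its 1032 bases the first 1030 equal those of ycf1, so the assignment of these reads between both is uncertain.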

How the results depend on the processing

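Under 33 alternatives the counts of called members stayed at 0 in 228 of 230 cases. The exceptions were DESeq2, with 1 member over the time course (rps15) and 1 at 30 min (cemA), both without the share of all genes beside them. The alternatives were summed counts, RLE scaling, other filters, 23S rRNA kept, plain totals, nuclear or plastid scaling, summed copies, a threshold of 0.05, the 23S covariate, the replicate block, contrast groups only and leaving out each library. The log2 ratio of the member share at 360 min over dark was −0.07 (−0.52 to 0.30 with 1 library left out), and it moved to −0.86 when 23S rRNA stayed in the total. Late over early it was 0.32 (0.17 to 0.54 with 1 library left out), and −0.47 with 23S rRNA kept. At 360 min, totals that keep 23S rRNA put the median of all genes at −0.65 and that of the members at −0.64, totals without it and without TMM put them at −0.39 and 0.11, and scaling to the summed members put them at −0.04 and 0.19. The covariate fit in the report, added after the values were seen, called 1168 genes at 360 min against 718. The 21 named changes at 360 min were called in 0 of 672 cases, moved by at least 1 SE in 32 and changed sign in 38. atpB stayed below 0 (−1.66 to −0.68) and rps15 above (1.60 to 4.05). Replicate numbers did not pair the samples (correlations of −0.41 to 0.45 over 45 pairs), and with the replicate block 0 members were called, with 555 genes at 360 min. Medians of members rest on wide fits, and most members under 260 bases did not pass the filter.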

Other observations

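Of 23 tested mitochondria-encoded genes, 0 were called at any time or late against early by edgeR or by DESeq2, which gave no adjusted p for up to 4 of them. At an unadjusted p below 0.05 (edgeR) there were 0, 1, 1, 1 and 4 at the 5 times in order and 3 late against early. Their median log2 change was −0.02, −0.66, 0.52, 0.60 and 1.21 at the 5 times and 1.19 late against early, beside −0.57, −0.85, 0.10, 0.30, 0.63 and 0.88 for the plastid members. The difference from the plastid members was not tested. The mitochondrial share had the order of the 23S share in 3 of 6 groups. Their share of the counts without 23S rRNA ranged from 0.0875% in 60 min replicate 3 to 4.91% in dark replicate 3.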
